A study of Mus musculus with 18 samples.

Results

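Gpnmb encodes glycoprotein nonmetastatic melanoma protein B, a transmembrane protein of phagocytes, and it is 1 of the 55270 genes listed in the deposited table. It was taken by its symbol, and it was singled out because its level had already been seen to differ between these groups. Its levels, its differences between groups and its co-variation with other genes are therefore given as descriptions without a test. The study sequenced poly-A RNA in 18 libraries from the substantia nigra, where the dopaminergic neurons lost in Parkinson disease have their cell bodies. There were 6 libraries from intact wild-type mice, for which no treatment is named, 6 from mice that overexpressed the green fluorescent protein GFP from an adeno-associated virus (AAV), and 6 from mice that overexpressed the mitochondrial deacetylase SIRT3 in the same way. The design text gives 6 mice per group, and the mice were 3 months old when the RNA was isolated, a month after AAV in the injected groups. The serotype, promoter, dose and injection site of the virus, the strain and the sex of the mice are not given in the sources used here. Intact mice received no AAV, so injection, virus and GFP cannot be told apart in the comparison of AAV-GFP with intact mice.

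GPNMB is a single-pass membrane glycoprotein related to the melanosome protein PMEL, and it sits on lysosome-related compartments and at the cell surface. Its gene is induced by the MiT/TFE transcription factors when lysosomes are under stress, and in brain it is known as a gene of microglia and macrophages that have taken up myelin, lipid or dying cells. The ectodomain can be shed by ADAM10, and it binds syndecan-4, CD44 and integrins. The human gene lies at a locus associated with Parkinson disease risk, and an interaction of its protein with alpha-synuclein has been described.

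In the GENCODE M21 annotation of GRCm38, the build of the submitters' alignment, Gpnmb lies on the plus strand of chromosome 6 from 49036546 to 49070929. It has 5 annotated transcripts, of which 2 are protein coding, and the exons cover 6514 bases in all. No other GENCODE gene overlaps the shorter RefSeq span of Gpnmb, 49036518 to 49058182. The rest of the GENCODE span was not searched for overlaps. The sequence around the annotated start is shown because motifs of the factors named above can be looked for in it. Where the transcripts counted here begin was not measured. Both stretches are from RefSeq on GRCm38.p6, which places the start of the gene at 49036518. They are chr6:49036268-49036517, the 250 bases before the start, and chr6:49036518-49036547, the first 30 bases of the gene, both on the plus strand and printed 5′ to 3′, with the bases of a motif match in capitals.
Gpnmb upstream: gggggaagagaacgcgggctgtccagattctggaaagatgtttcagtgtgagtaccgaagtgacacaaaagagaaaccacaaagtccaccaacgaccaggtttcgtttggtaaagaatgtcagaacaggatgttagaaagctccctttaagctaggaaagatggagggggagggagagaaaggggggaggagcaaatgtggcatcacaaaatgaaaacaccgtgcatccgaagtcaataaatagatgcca
Gpnmb start: ggggcaagTGACTCAtgagcacgagttgtt
The capitals mark TGACTCA, a match to TGANTCA, the site of AP-1 (Fos and Jun) factors. It begins at base 9 of the RefSeq gene, at 49036526, and lies before the GENCODE start. Among 32851 mouse promoters of 300 bases (250 before and 50 after the start), searched on both strands, 7.81% held TGANTCA. The window of Gpnmb held no match to CACGTG, the E-box of the lysosomal CLEAR element, which 7.15% of promoters held, or to TCATGTG, the M-box of MITF, which 3.77% held. It also held no match to GAGGAAGT, a site of the myeloid factor PU.1 (3.20% of promoters), to TTCNNNGAA, the STAT site (8.30%), or to TATAAA, the TATA box (13.6%). A match is a description of letters and not a bound site.

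The 18 libraries held between 47182529 and 64728587 reads assigned to genes. Levels below are reads divided by the authors' size factor of each library, called normalised reads. Sirt3 itself averaged 1824 ± 66.3 normalised reads (intact), 1775 ± 92.4 (AAV-GFP) and 1937 ± 79.4 (AAV-SIRT3, SD, n = 6 each), and AAV-SIRT3 did not pass the test against AAV-GFP (log2 difference 0.13, SE 0.042, limma adjusted p = 0.183). The dopaminergic markers Th (tyrosine hydroxylase) and Slc6a3 (dopamine transporter) were present in all libraries, from 3673 to 6637 and from 6087 to 12867 normalised reads. A pair of libraries stood apart in some other genes. AAV-GFP replicate 6 held 483.2 normalised reads of Gpr151 and 704.2 of Chrna3, both known as genes of habenular neurons, where the other AAV-GFP libraries held 27.0 to 98.7 and 274.0 to 321.9. AAV-SIRT3 replicate 6 held 207.0 normalised reads of the monocyte gene Ly6c2, where no other library held over 16.9, and 13103 of B2m, the light chain of class I antigen presentation, where no other held over 7404. Ly6c2 and B2m were picked after their values were seen. The sum of the 7 monocyte genes in that library, 1972 normalised reads, lay within the AAV-SIRT3 range of 1792 to 2092. Most of that sum is Vcan, with a mean of 1945 over all libraries. The log2 differences and the spread of Gpnmb are given with and without each library of this pair.

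Gpnmb was a low-level transcript in the nigra of intact mice and was several times higher after AAV-GFP, while its level in AAV-SIRT3 mice lay among those of intact mice. In intact mice it had 151.9, 96.1, 108.4, 99.9, 91.3 and 134.6 normalised reads in replicates 1 to 6, with a mean of 113.7 ± 24.2 (SD, n = 6). In AAV-GFP mice replicates 1 to 6 held 498.2, 355.6, 607.6, 457.0, 838.5 and 175.8, with a mean of 488.8 ± 225. In AAV-SIRT3 mice they held 89.5, 100.2, 120.1, 70.4, 94.6 and 171.0, with a mean of 107.6 ± 35.0. All 6 AAV-GFP libraries were above all 12 others. Of all genes tested, 0.874% had every AAV-GFP library above every intact one and 0.381% had every AAV-SIRT3 library below every AAV-GFP one. Of the AAV-GFP libraries, replicate 5 was the highest and replicate 6 the lowest. The intact and AAV-SIRT3 libraries overlapped along most of their range.

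**Figure D1:**
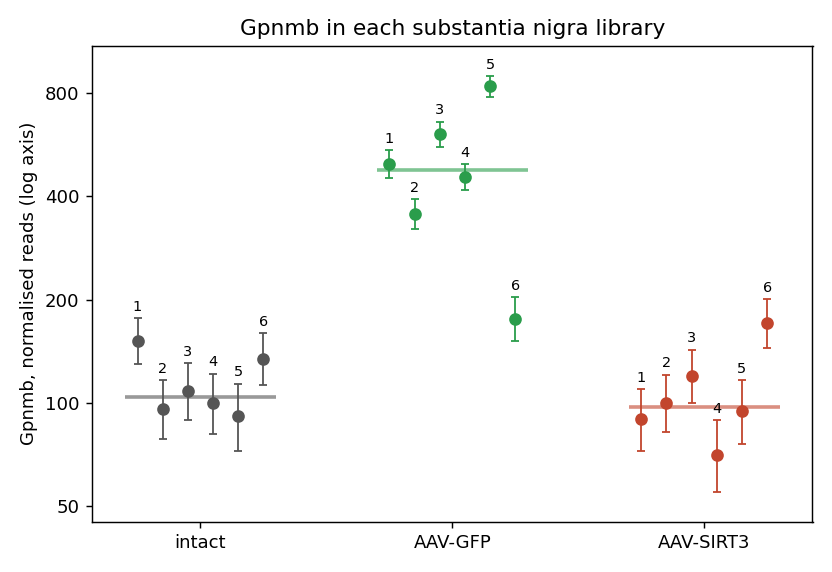
Normalised reads of Gpnmb in each of the 18 libraries on a log axis, by group, with the replicate number beside each point, 95% Poisson intervals of the reads as bars and lines at the group medians. The 6 AAV-GFP libraries, from 175.8 to 838.5, lie above the 12 others, and AAV-GFP replicate 6 lies just above AAV-SIRT3 replicate 6.

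The separation was narrow at its edge. AAV-GFP replicate 6, with 175.8 normalised reads from 179 reads counted (95% exact Poisson interval 151.0 to 203.5), was 4.77 normalised reads above AAV-SIRT3 replicate 6, with 171.0 from 152 reads (144.9 to 200.5). The intervals, which cover counting error only, contain each other's value, so that the order of these 2 libraries was not resolved at this depth. The lowest AAV-GFP library was 23.9 normalised reads above the highest intact library. With TMM factors in place of the deposited size factors the edge libraries held 174.8 and 171.4, in the same order.

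Across the whole groups the differences were large. Gpnmb in AAV-GFP was 4.30 times its intact mean, and the difference on the log2(value + 1) scale was 1.97 (SE 0.267). AAV-SIRT3 was lower than AAV-GFP by 4.54 times in the means, at a log2 difference of -2.08 (SE 0.267). Between AAV-SIRT3 and intact mice the log2 difference was -0.11 (SE 0.267), and an AAV-SIRT3 library was the higher in 14 of the 36 pairs of libraries. The first and second comparison share the AAV-GFP libraries, and the values are given side by side only. Without AAV-GFP replicate 6 they were 2.23 and -2.34, without AAV-SIRT3 replicate 6 the second was -2.22 and the third -0.25, and without AAV-GFP replicate 5, the highest library, the first was 1.78 and the second -1.89.

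The 19443 genes that reached 10 normalised reads in 6 or more libraries were tested, and among them the log2 difference of Gpnmb was number 10 from the top in AAV-GFP against intact mice. The genes just above it were Tgm1 and Ly9, at 2.08 and 2.00, and the gene just below was 2900022M07Rik at 1.93. In AAV-SIRT3 against AAV-GFP it was number 5 from the bottom, after Ccl2 at -2.31 and before Gm42793 at -2.06. Only 4 of the 19443 genes, 0.0206%, had all 6 AAV-GFP libraries above all 12 others. They were Gpnmb, Clu, the secreted chaperone clusterin, Serpinf2, the plasmin inhibitor alpha-2-antiplasmin, and Ccdc190. The choice of Gpnmb used these same values, so its place among them is a description.

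The spread inside the groups rested in part on single libraries. The coefficient of variation of Gpnmb was 46.0% in AAV-GFP mice, 32.5% in AAV-SIRT3 and 21.3% in intact mice, where counting error alone gives 4.53%, 9.68% and 9.31%. The highest AAV-GFP library held 4.77 times the lowest, against 2.43 times in AAV-SIRT3 and 1.66 times in intact mice. Without AAV-GFP replicate 6 the AAV-GFP values were 33.4% and 2.36 times, at a mean of 551.4 ± 184 normalised reads (SD, n = 5). Without AAV-SIRT3 replicate 6 the AAV-SIRT3 values were 18.9%, below intact mice, and 1.70 times. The order of the groups by spread therefore depended on these 2 libraries.

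Genes of disease-associated microglia, the phagocytic state in which Gpnmb is a known marker, were higher as a group after AAV-GFP. Of 33 such genes other than Gpnmb, 31 were tested, and 18 rose in AAV-GFP against intact mice while 0 fell (limma, adjusted p under 0.05), where 0.823% of all genes tested rose, 1.02% fell and 1.84% changed in either direction. The median log2 difference of the 31 was 0.30, against 0.00 over all genes. For 10 of the 31 every AAV-GFP library was above every intact one, as for 0.874% of all genes. The list was compiled with results of these data known and is not independent evidence of a direction. In bulk tissue, more cells of a type and more RNA per cell cannot be told apart.

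Among the genes of this list with the largest rises were Itgax, Clec7a, Cst7, Ch25h and Lgals3. Ch25h, an enzyme that makes an oxysterol from cholesterol, rose by 1.68 in AAV-GFP against intact mice (limma adjusted p = 0.0465), a call kept in 12 alternatives and lost in 14. Clec7a, the beta-glucan receptor dectin-1, had 21.8, 28.2 and 32.3 normalised reads as the lowest, median and highest value in intact mice, 91.3, 177.6 and 274.0 in AAV-GFP mice and 19.0, 64.3 and 97.9 in AAV-SIRT3 mice. Its AAV-GFP libraries were all above intact, and the lowest of them, replicate 6, lay within the AAV-SIRT3 range. Its log2 difference was 2.59 in AAV-GFP against intact (SE 0.296, limma adjusted p = 0.00028), -1.67 in AAV-SIRT3 against AAV-GFP (adjusted p = 0.0168) and 0.92 in AAV-SIRT3 against intact (adjusted p = 0.0309). The second of these calls was lost with only the 2 groups compared, with a block for the replicate number and without AAV-GFP replicate 1, 3 or 5 or AAV-SIRT3 replicate 5. The third was lost without the filter on low values and without intact replicate 2 or 4 or AAV-SIRT3 replicate 2, 3, 4 or 6.

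Lgals3, the secreted lectin galectin-3, had 22.0, 33.4 and 43.4 normalised reads as the lowest, median and highest in intact, 67.2, 104.7 and 184.7 in AAV-GFP and 45.7, 62.7 and 119.3 in AAV-SIRT3 mice. It rose in AAV-GFP against intact mice by 1.68 on the log2 scale (limma adjusted p = 0.00297) and in AAV-SIRT3 against intact mice by 1.00 (adjusted p = 0.00986), and every library of both AAV groups was above every intact one. Every AAV-SIRT3 library was above every intact one for 5.01% of all genes. Between the AAV groups it differed by -0.67 (adjusted p = 0.234), which did not pass. Lgals3 in AAV-SIRT3 mice thus lay above intact mice, while Gpnmb in AAV-SIRT3 mice overlapped with them.

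Itgax, the integrin CD11c, had lowest, median and highest values of 4.17, 13.7 and 27.2 normalised reads in intact, 56.0, 105.4 and 151.5 in AAV-GFP and 15.6, 30.8 and 72.0 in AAV-SIRT3 mice. Cst7, the protease inhibitor cystatin F, had 0 to 13.7 in intact, 33.4 to 100.9 in AAV-GFP and 9.68 to 50.6 in AAV-SIRT3 mice. Both genes were higher in every AAV-GFP library than in every intact one, with intermediate levels in AAV-SIRT3 mice. Itgax rose by 2.80 and Cst7 by 4.52 on the log2 scale in AAV-GFP against intact mice (limma adjusted p = 0.00131 and 0.000359). In AAV-SIRT3 against intact mice Itgax rose by 1.23 (adjusted p = 0.0281), a call lost with only the 2 groups compared, without the filter on low values and without intact replicate 4 or 6 or AAV-SIRT3 replicate 3, 5 or 6, and Cst7 by 2.64 (adjusted p = 0.00236). In AAV-SIRT3 against AAV-GFP mice neither passed, at -1.57 and -1.87 (adjusted p = 0.105 and 0.136). Cst7 is near 0 in intact mice, so its log2 difference depends on the pseudocount, and in AAV-GFP against intact mice it was called by each alternative fitted except DESeq2.

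**Figure D2:**
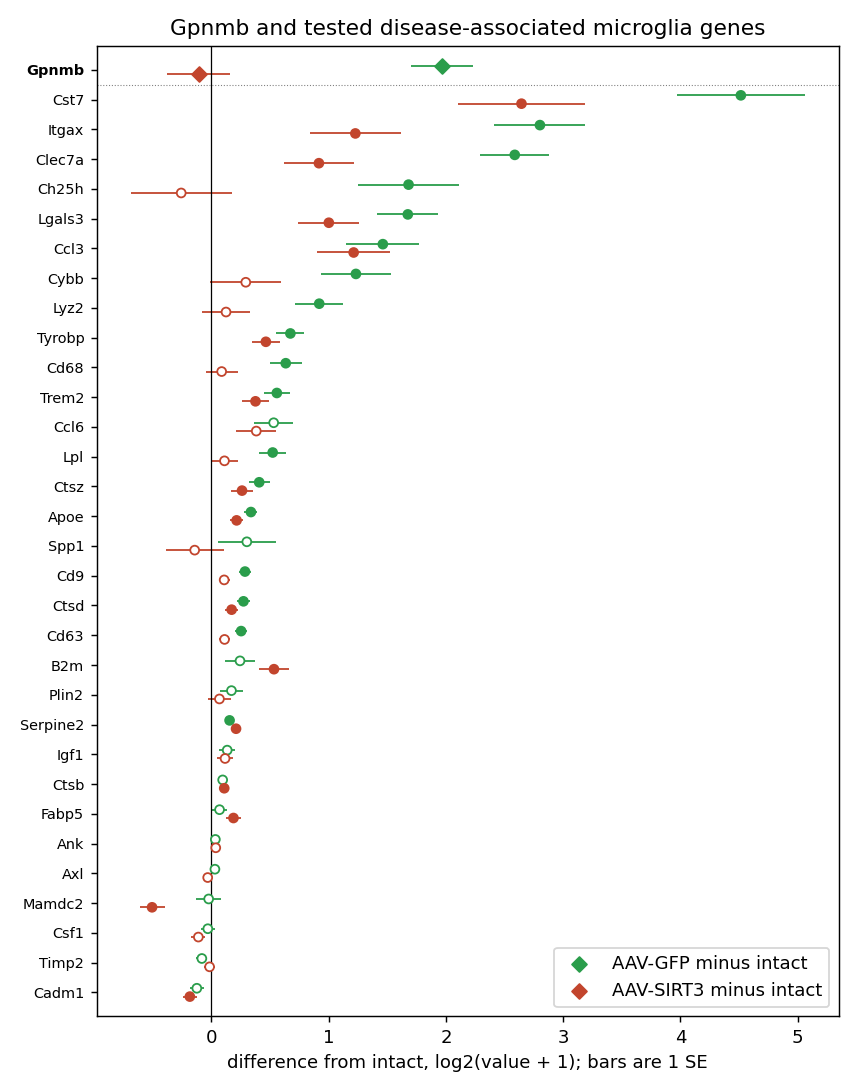
Log2 differences of Gpnmb and of the tested disease-associated microglia genes from intact mice, for AAV-GFP (green) and AAV-SIRT3 (red), with bars of 1 standard error. Filled circles passed the limma threshold and open ones did not, and Gpnmb, at 1.97 and -0.11, is drawn as diamonds without a call, since it was chosen from these values.

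The other comparisons counted fewer of these genes, or counted them against a larger background. In AAV-SIRT3 against AAV-GFP mice 1 of the 31 fell, Clec7a, and 0 rose, where 0.0771% of all genes fell, 0.036% rose and 0.113% changed. The median of the 31 was -0.15, against 0.00 over all genes, and by DESeq2 9 of them changed. Without AAV-GFP replicate 2 the count was 7, without AAV-GFP replicate 6 it was 4, and it was 0 with only the 2 groups compared, with a block for the replicate number and without AAV-GFP replicate 1, 3 or 5 or AAV-SIRT3 replicate 5. In AAV-SIRT3 against intact mice 14 rose and 2 fell (Cadm1 and Mamdc2), where 11.3% of all genes rose, 10.3% fell and 21.7% changed. Their median was 0.13, against 0.00 over all genes, and the total fell to 8 without AAV-SIRT3 replicate 6, 10 without intact replicate 4 and 9 without the filter on low values. The count for AAV-GFP against intact mice was 10 without AAV-GFP replicate 5 and 11 without intact replicate 4.

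Genes of TREM2 signalling had smaller log2 differences than Gpnmb in AAV-GFP against intact mice and in AAV-SIRT3 against AAV-GFP mice. That is a description only, since Gpnmb was chosen for its differences. Trem2, the lipid-sensing receptor of microglia, had a mean of 514 ± 46.5 normalised reads in intact mice, 763 ± 110 in AAV-GFP mice and 676 ± 135 in AAV-SIRT3 mice. It rose by 0.56 in AAV-GFP against intact mice (limma adjusted p = 0.0164) and by 0.38 in AAV-SIRT3 against intact mice (adjusted p = 0.0204), the latter not without AAV-SIRT3 replicate 6. Tyrobp, its signalling adaptor, rose by 0.67 and 0.47 in the same comparisons (adjusted p = 0.0088 and 0.00928), and Apoe, the lipoprotein that binds Trem2, by 0.34 and 0.22 (adjusted p = 0.00436 and 0.00919). None of the 3 passed in AAV-SIRT3 against AAV-GFP mice, at -0.18, -0.21 and -0.12. Of the 14 genes of TREM2 signalling and lipid handling, 4 rose in AAV-GFP against intact mice, where 0.823% of all genes did. The fourth was Lpl, lipoprotein lipase, by 0.52 (adjusted p = 0.0228), a call lost without AAV-GFP replicate 3 or 5. Between the AAV groups 0 of the 14 passed, where 0.113% of all genes did. Against intact mice, 3 of the 14 rose in AAV-SIRT3 mice and 2 fell, where 11.3% and 10.3% of all genes did.

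Reads of Gpnmb were set against those of other phagocyte genes of the same library, which removes the library's scaling. Per read of Cd68, the lysosomal membrane protein of phagocytes, intact libraries held 0.235 to 0.424 reads of Gpnmb, AAV-GFP libraries 0.455 to 1.05 and AAV-SIRT3 libraries 0.215 to 0.351. Per read of Tyrobp the ranges were 0.156 to 0.255, 0.265 to 0.853 and 0.0864 to 0.176, and per read of Aif1, the microglial protein Iba1, they were 0.442 to 0.765, 0.734 to 3.14 and 0.273 to 0.534. The AAV-GFP libraries were above all others for Cd68 and Tyrobp, and for Aif1 above all AAV-SIRT3 libraries, with AAV-GFP replicate 6 (0.734) below intact replicate 1 (0.765). In AAV-GFP mice the mean of Gpnmb was thus higher against intact mice by a larger factor than the means of these 3 genes. Gpnmb was chosen for its difference between these groups, so a larger factor follows from the choice and is a description only.

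Clec7a and Lgals3 gave another picture. Per read of Clec7a there were 3.08 to 5.53 reads of Gpnmb in intact, 1.92 to 3.10 in AAV-GFP and 1.16 to 4.70 in AAV-SIRT3 libraries, with medians of 3.99, 2.75 and 1.71, so that the median was lower in AAV-GFP than in intact libraries and 1 AAV-GFP library (3.10) overlapped with the lowest intact one (3.08). Per read of Lgals3 there were 2.11 to 5.53, 2.32 to 6.80 and 1.11 to 1.96, with medians of 3.63, 4.54 and 1.66. All 6 AAV-SIRT3 libraries were below all intact and AAV-GFP libraries in reads of Gpnmb per read of Lgals3. Per kilobase of exon, mean Gpnmb was 17.5 normalised reads in intact mice, 75.0 in AAV-GFP mice and 16.5 in AAV-SIRT3 mice. The length used covers the exons of all annotated transcripts and can exceed that of the RNA present. This scale therefore sets different genes side by side only roughly. Lgals3 stood at 17.6, 60.9 and 36.8 on that scale, Clec7a at 10.6, 68.7 and 22.6, and Cd68 at 301, 477 and 322.

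**Figure D3:**
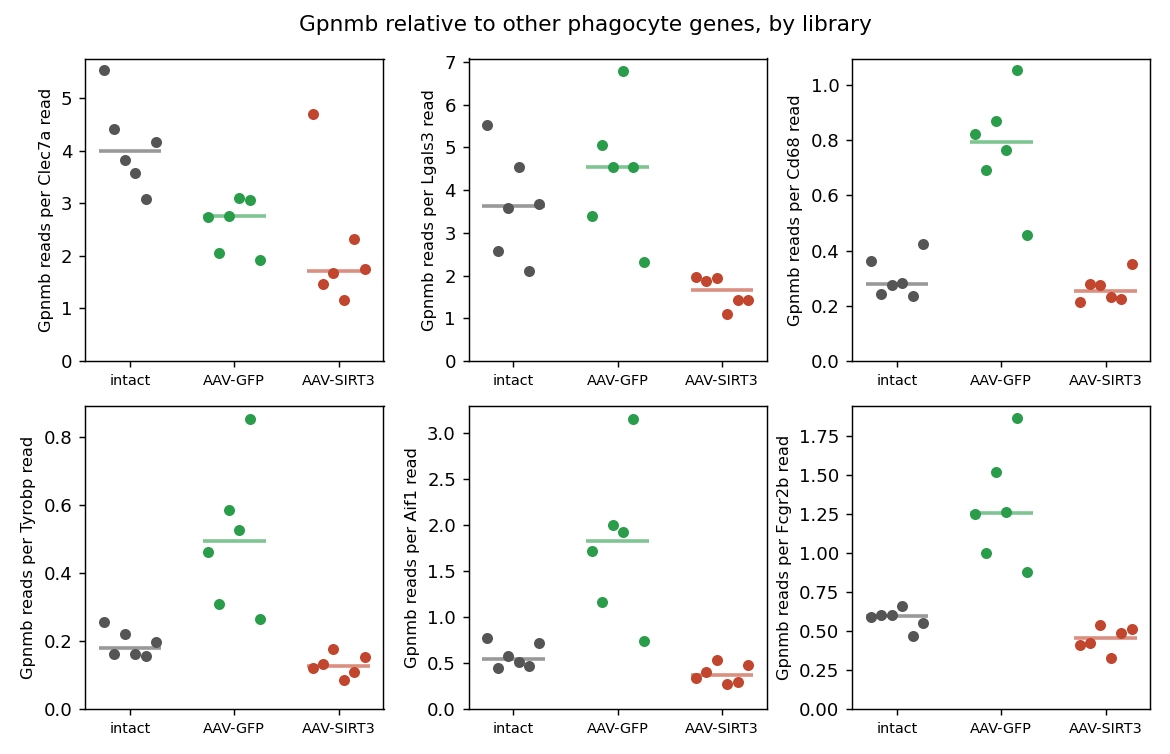
Reads of Gpnmb per read of other phagocyte genes in each of the 18 libraries, by group, in replicate order on linear axes, with lines at the group medians. The AAV-GFP libraries lie above the others for Cd68 (0.455 to 1.05) and Tyrobp (0.265 to 0.853), and the AAV-SIRT3 libraries lie below the others for Lgals3 (1.11 to 1.96).

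Markers of the cells that could carry Gpnmb were summed in each library. The 33 disease-associated microglia genes summed to 205724 to 230648 normalised reads in intact, 236020 to 260506 in AAV-GFP and 231998 to 266182 in AAV-SIRT3 libraries. Every library of both AAV groups was thus above every intact one, and the AAV groups overlapped. Abundant genes weigh most in this sum, such as Apoe and Ctsb, with means of 86838 and 35841 over all libraries. Clec7a and Itgax, with means of 89.6 and 52.3, hardly enter it. The 15 homeostatic microglia genes summed to 21022 to 23853 normalised reads in intact, 22400 to 26255 in AAV-GFP and 22162 to 23573 in AAV-SIRT3 libraries. These ranges overlapped, and none of the 15 was at 0 in any library. Of these genes 2 rose in AAV-GFP against intact mice, Fcrls by 0.36 (limma adjusted p = 0.0171) and Aif1 by 0.47 (adjusted p = 0.0283), and 0 fell, where 0.823% of all genes rose and 1.02% fell. The Aif1 call was lost without intact replicate 3, 4 or 5 or AAV-GFP replicate 2, 3 or 5. AAV-SIRT3 against intact mice gave 4 rises and 0 falls of the 15, where 11.3% of all genes rose, among them Tmem119, a marker of resident microglia, by 0.38 (adjusted p = 0.00181). The part of these changes in the level of Gpnmb was not tested.

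Other candidate sources were low or overlapped between groups. The 8 genes of border-associated macrophages, the phagocytes of meninges and vessels, summed to 591 to 1179 normalised reads in intact, 574 to 1296 in AAV-GFP and 587 to 1042 in AAV-SIRT3 libraries, and 0 of 7 tested passed in any comparison. The 7 melanocyte genes summed to 65.9 to 151.4, 74.6 to 123.6 and 73.3 to 102.9. The sum was above Gpnmb in intact replicate 2 (151.4 against 96.1) and AAV-SIRT3 replicates 2 (102.9 against 100.2) and 4 (91.3 against 70.4). In all other libraries, with each AAV-GFP library among them, it was below Gpnmb. Which cells carry Gpnmb was not tested. The defining melanocyte gene Mlana had means of 0.353, 1.96 and 1.84 and stayed below the level tested. Of 7 monocyte genes only 2 were tested, Ccr2 and Vcan, with 0 passing in AAV-GFP against intact mice, and F10 was at 0 in 15 of the 18 libraries. The 6 genes of fibroblasts and meninges summed to 5221 to 9126, 4336 to 8177 and 3421 to 7388, and 1 of them fell in AAV-SIRT3 against intact mice, the transporter Slc6a13, by 0.76 on the log2 scale (limma adjusted p = 0.0212), not without intact replicate 5 or AAV-SIRT3 replicate 5. The 5 tested dendritic cell genes gave 0 calls in any comparison. Over all genes 1.84% passed in AAV-GFP against intact, 0.113% in AAV-SIRT3 against AAV-GFP and 21.7% in AAV-SIRT3 against intact mice.

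The 8 markers of oligodendrocyte precursors gave 0 calls in AAV-GFP against intact mice and in AAV-SIRT3 against AAV-GFP mice, and 1 rise (Olig1) and 1 fall (Vcan) in AAV-SIRT3 against intact mice, near the 11.3% and 10.3% of all genes called in those directions, the rise being kept in 18 of 28 alternatives. Of 10 dopaminergic neuron genes 2 fell in AAV-GFP against intact mice, where 1.02% of all genes fell, and the median of the 10 was -0.29. They were Slc6a3, by 0.44 (limma adjusted p = 0.0263), and Ret, the receptor of glial neurotrophic factors, by 0.30 (adjusted p = 0.0214). Both calls were lost without intact replicate 3 or 5 or AAV-GFP replicate 5, that of Slc6a3 also without the filter on low values, and without intact replicate 2 5 of the 10 fell. In AAV-SIRT3 against AAV-GFP mice 0 of the 10 passed, where 0.113% of all genes did, and in AAV-SIRT3 against intact mice 0, where 21.7% did. The part of the neurons in the level of Gpnmb was not tested.

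**Figure D4:**
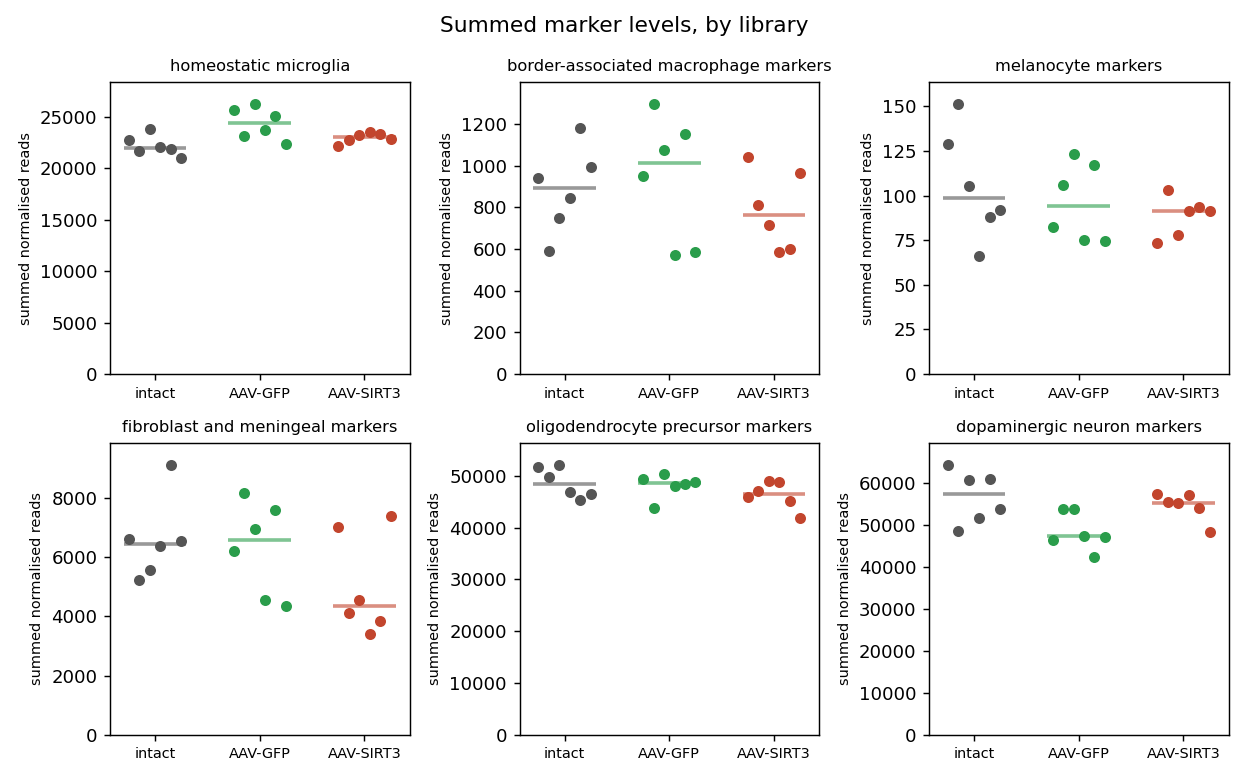
Summed normalised reads of marker lists for candidate cell sources and for dopaminergic neurons in each of the 18 libraries, by group, with lines at the group medians. The sums for homeostatic microglia (21022 to 26255) and the other lists drawn overlap between groups. The list of disease-associated microglia genes is not drawn.

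None of the MiT/TFE factors, which can switch Gpnmb on, passed the test at the RNA level. Mitf had means of 717 ± 81.3, 674 ± 94.2 and 665 ± 66.8 normalised reads in intact, AAV-GFP and AAV-SIRT3 mice, Tfeb 747 ± 57.9, 804 ± 76.2 and 808 ± 81.2, and Tfe3 1984 ± 75.7, 1941 ± 113 and 1988 ± 101 (SD, n = 6). Of the 10 tested genes of these factors and of the folliculin and Rag proteins that hold them in the cytosol, 0 passed in AAV-GFP against intact mice or in AAV-SIRT3 against AAV-GFP mice. Over all genes 1.84% and 0.113% passed there, so a count of 0 among 10 is near the share. Against intact mice, where 11.3% of all genes rose, 1 of the 10 rose in AAV-SIRT3 mice, Rragc by 0.13 (limma adjusted p = 0.027), not without the filter on low values, intact replicate 2 or 4 or AAV-SIRT3 replicate 5 or 6. These factors are controlled in large part by moving between cytosol and nucleus, which RNA levels do not show.

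Some lysosomal genes of the CLEAR network, the shared targets of these factors, rose in AAV-GFP against intact mice. Of 34 tested, 3 rose and 0 fell, where 0.823% of all genes rose and 1.02% fell, with a median of 0.05 against 0.00 over all genes. They were Ctsd (cathepsin D) by 0.27 (limma adjusted p = 0.0197), Ctsz (cathepsin Z) by 0.41 (adjusted p = 0.0239) and Cd63, a tetraspanin of late endosomes, by 0.25 (adjusted p = 0.0164). The Ctsd call was lost without AAV-GFP replicate 5, and that of Ctsz without intact replicate 3 or 4 or AAV-GFP replicate 2, 3 or 5. All 3 are also on the disease-associated microglia list. The count was 1 without AAV-GFP replicate 5, 6 without AAV-GFP replicate 6, by DESeq2 or among genes with a mean of at least 50, and 5 with TMM factors or without AAV-SIRT3 replicate 6. Against intact mice, where Gpnmb overlapped, 10 of the 34 rose in AAV-SIRT3 mice and 1 fell, at a median of 0.04, where 11.3% of all genes rose and 10.3% fell. The total of 11 was 3 without AAV-SIRT3 replicate 6, 4 without intact replicate 4, 5 without intact replicate 2, the filter on low values or with quantile scaling, 6 without intact replicate 3 and 7 without AAV-SIRT3 replicate 3. The rises include Npc2, the cholesterol carrier of the lysosome, by 0.21 (adjusted p = 0.00907) and Grn, progranulin, by 0.20 (adjusted p = 0.00647).

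Of 10 genes for binding partners and sheddases of GPNMB, 0 passed in AAV-GFP against intact mice or in AAV-SIRT3 against AAV-GFP mice, near the 1.84% and 0.113% of all genes. Cd44, the hyaluronan receptor, had means of 475 ± 59.5, 575 ± 67.2 and 442 ± 81.6 normalised reads in intact, AAV-GFP and AAV-SIRT3 mice, with log2 differences of 0.28 and -0.39 in those comparisons (limma adjusted p = 0.168 and 0.122). Adam10, the sheddase, differed by 0.02 and -0.03. Against intact mice, AAV-SIRT3 mice differed in 2 of the 10, near the 21.7% of all genes called in that comparison. Sdc4, syndecan-4, rose by 0.30 (adjusted p = 0.00358) and Itgb3, integrin beta-3, fell by 0.48 (adjusted p = 0.0266), the latter not without intact replicate 3 or AAV-SIRT3 replicate 2, 4 or 5.

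Other genes at Parkinson risk loci did not pass the test in the comparisons in which Gpnmb differed. Of 18 tested, 0 passed in AAV-GFP against intact mice (median 0.01), where 1.84% of all genes did. In AAV-SIRT3 against AAV-GFP mice 0 of them passed, where 0.113% of all genes did. Among 18 genes, a count of 0 is near both shares. In AAV-SIRT3 against intact mice 3 of the 18 passed, where 21.7% of all genes did. In AAV-SIRT3 mice Grn and Ctsb (cathepsin B) rose against intact mice, by 0.20 and 0.11, and Vps13c, a lipid transfer protein, fell by 0.39 (limma adjusted p = 0.00212). The Ctsb call was kept in 19 of 28 alternatives. Pmel, the paralogue of Gpnmb, had means of 35.6 ± 6.98, 39.4 ± 12.5 and 38.8 ± 7.32 normalised reads, with overlapping groups and log2 differences of 0.09 and 0.03. Of 8 tested genes of osteoclasts, where Gpnmb is also known, 0 passed in AAV-GFP against intact mice or in AAV-SIRT3 against AAV-GFP mice. That count is again near the shares over all genes, 1.84% and 0.113%.

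The chromosomal neighbours of Gpnmb did not pass the test either. Malsu1, a mitochondrial ribosome assembly factor whose RefSeq gene begins 15.6 kb after Gpnmb, had means of 366 ± 56.4, 403 ± 37.9 and 434 ± 48.3 normalised reads, with a log2 difference of 0.15 in AAV-GFP against intact mice (limma adjusted p = 0.438). Igf2bp3, an RNA-binding protein 27.0 kb away, differed by -0.04 and the splicing factor Tra2a, 185.7 kb away, by 0.10. Between the AAV groups the 3 differed by 0.11, -0.27 and -0.06, and none passed. On the other side the nearest protein-coding genes in RefSeq, Svs1, Doxl2 and Doxl1, were not matched by symbol and have no value here.

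Several reactive astrocyte genes rose after AAV-GFP and were lower after AAV-SIRT3. Of 12 tested, 4 rose in AAV-GFP against intact mice and 0 fell, where 0.823% of all genes rose. In AAV-SIRT3 against AAV-GFP mice 3 fell and 0 rose, where 0.0771% of all genes fell, with medians in the 2 comparisons of 0.50 and -0.62 against 0.00 and 0.00 over all genes. The 4 rises were 2 without intact replicate 3 or AAV-GFP replicate 3 and with only the 2 groups compared, and 7 by DESeq2. The 3 falls were 7 without AAV-GFP replicate 2, 5 without AAV-GFP replicate 6 and 9 by DESeq2, with 1 rise. C3, the central complement component, had 184.9, 219.3 and 286.7 normalised reads as the lowest, median and highest in intact, 291.7, 596.8 and 906.0 in AAV-GFP and 166.6, 232.0 and 310.6 in AAV-SIRT3 mice. Its AAV-GFP libraries were all above intact, and replicate 6 of AAV-GFP was below replicate 6 of AAV-SIRT3. C3 rose by 1.31 in AAV-GFP against intact mice and fell by 1.32 in AAV-SIRT3 against AAV-GFP mice (limma adjusted p = 0.0034 and 0.00991). Serpina3n, a protease inhibitor of reactive astrocytes, rose by 0.89 and fell by 0.88 (adjusted p = 0.00297 and 0.00991), with -0.01 and 0.00 for C3 and Serpina3n between AAV-SIRT3 and intact mice. The third to fall, A2m, alpha-2-macroglobulin, did so by 0.65 (adjusted p = 0.0116), not without AAV-SIRT3 replicate 5. Gfap and Osmr did not pass between AAV-SIRT3 and intact mice either, at -0.05 and -0.13 (limma adjusted p = 0.822 and 0.592). In that comparison 2 of the 12 rose and 1 fell, near the 11.3% and 10.3% of all genes that did. The total of 3 ran from 1 to 3 in the alternatives. Lcn2 had means of 4.17, 148 and 49.0 normalised reads per kilobase of exon in intact, AAV-GFP and AAV-SIRT3 mice. Its log2 difference in AAV-GFP against intact mice was 3.91.

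Co-variation was then described with the group means subtracted, so that a gene is like Gpnmb only where libraries of the same group deviate together. Over the 18 libraries, 15244 genes with a mean of at least 50 normalised reads had a median Pearson r with Gpnmb of 0.00, with 90% of them between -0.43 and 0.46. All points share libraries, depth and dissection. The gene most like Gpnmb was Fcgr2b, the inhibitory Fc receptor of phagocytes, at r = 0.88 (Spearman rho 0.80), followed by Irf8, a transcription factor of myeloid cells, at 0.87 (rho 0.82), and Cd68 at 0.85 (rho 0.72). Next came C3ar1, the receptor of the C3a peptide, at 0.84, Adgre1, the macrophage antigen F4/80, at 0.82, Osmr, the oncostatin M receptor, at 0.80, and C1qc, a chain of complement C1q, at 0.79. Col14a1, a fibril-associated collagen, Serpina3n and Gfap, the astrocyte filament, completed the 10 at 0.78, 0.78 and 0.77.

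The libraries farthest from their group mean carried part of the likeness. Without AAV-GFP replicates 5 and 6, r over the other 16 libraries was 0.78 for Fcgr2b, 0.74 for Irf8, 0.66 for Cd68, 0.57 for C3ar1, 0.53 for C1qc, 0.53 for Serpina3n and 0.85 for Col14a1. Without AAV-GFP replicate 6 alone, 2 of the 10 most like genes were among the 10, and without AAV-SIRT3 replicate 6 5 were. Inside the groups of 6, r for Fcgr2b was 0.84 in intact mice, 0.95 in AAV-GFP mice and 0.82 in AAV-SIRT3 mice, and for Irf8 0.79, 0.98 and 0.82. For Cd68 it was -0.07, 1.00 and 0.84, and for C3ar1 -0.66, 0.99 and 0.87. So the relation of Gpnmb with Cd68 and C3ar1 was close in both AAV groups. In intact libraries, which spanned only 1.66 times in Gpnmb, Cd68 had almost no relation (-0.07) and C3ar1 a negative one (-0.66). These differences between groups were not tested.

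**Figure D5:**
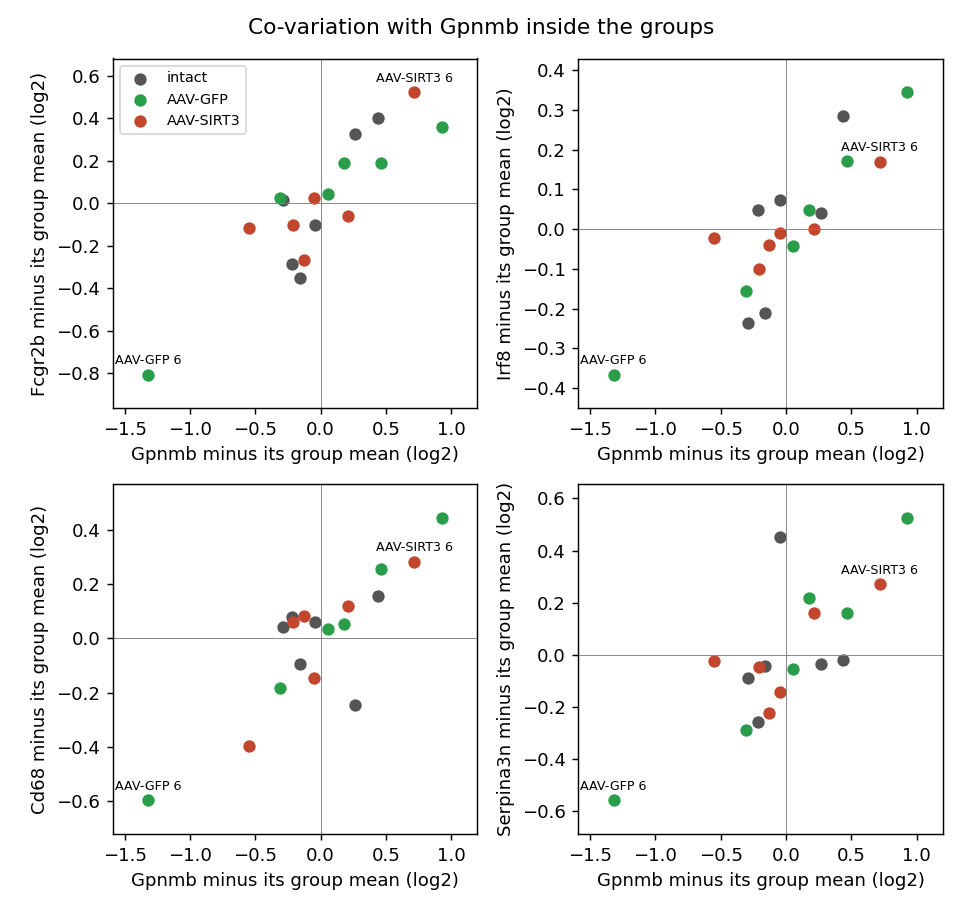
Deviation from the group mean on the log2(value + 1) scale of Fcgr2b, Irf8, Cd68 and Serpina3n against that of Gpnmb, 1 point for each of the 18 libraries, coloured by group. AAV-GFP replicate 6 lies at the lower left of each panel, and r over all libraries is 0.88, 0.87, 0.85 and 0.78.

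Fcgr2b showed the same extremes as Gpnmb, with 199.4 normalised reads in AAV-GFP replicate 6 and 449.4 in replicate 5, and 335.3 in AAV-SIRT3 replicate 6. Its lowest, median and highest values were 151.9, 188.5 and 256.2 in intact, 199.4, 379.8 and 449.4 in AAV-GFP and 193.5, 220.6 and 335.3 in AAV-SIRT3 mice, and the groups overlapped. Its rise by 0.85 in AAV-GFP against intact mice passed (limma adjusted p = 0.0171), and its difference of -0.58 in AAV-SIRT3 against AAV-GFP mice did not (adjusted p = 0.142). Irf8 rose by 0.47 in AAV-GFP against intact mice (adjusted p = 0.0319), a call kept in 20 of 28 alternatives, and by 0.45 in AAV-SIRT3 against intact mice (adjusted p = 0.0062). It deviated with Gpnmb inside each group but stood above intact in both AAV groups.

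By list, the median r with Gpnmb was 0.48 over the 31 disease-associated microglia genes, 27 of them above 0, and 0.56 over the 12 reactive astrocyte genes, all of them above 0. It was 0.27 over the 15 homeostatic microglia genes, 0.31 over 7 border-associated macrophage genes and 0.45 over 6 fibroblast genes. It was 0.18 over 34 lysosomal genes, 0.03 over the 10 MiT/TFE genes and -0.14 over the 10 dopaminergic neuron genes. At the other end Gpr151 had the lowest r at -0.83, then Cyp4x1, a cytochrome P450, at -0.79, Drc3, a ciliary protein, and Mir9-3hg, a microRNA host transcript, both at -0.77, and Chrna3, a nicotinic receptor subunit, at -0.75. Gpr151 and Chrna3 are the genes that were high in AAV-GFP replicate 6, and without AAV-GFP replicates 5 and 6 their r was -0.51 and -0.36. The part of the tissue taken in that library in its low Gpnmb was not tested.

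The promoters of the genes most like Gpnmb were searched for the same motifs as its own. Of 15 genes, the highest by either measure, centred or not, 13 matched RefSeq promoters, 15 in all. TGANTCA was found in 3 of these 15 promoters, of C3ar1, Cd68 and Osmr, and CACGTG in 0. GAGGAAGT and TCATGTG were each found in 1, of C1qc, TTCNNNGAA in 2 and TATAAA in 5. These counts describe letters in windows of 300 bases and were not tested against the shares over all promoters.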

How the data were processed

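Poly-A RNA of 18 nigral samples was sequenced as stranded libraries in pairs of 100 bp, per the labels' protocols. Groups and replicate numbers come from the sample titles. Per the submitters' processing notes, HISAT2 2.1.0, DESeq2 1.34.0 and the build mm10 were used. Per the name of the deposited table, its values are a signal per gene, HTSeq counts normalised by DESeq2. The annotation and strand setting are not given in the sources used here. Each deposited column is whole reads divided by 1 size factor. All values above 0, 100%, came out whole within 1e-06 reads after rescaling, and these recovered reads give the depth and the count tests.

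Values were tested as log2(value + 1) in 1 limma 3.58.1 model of the 3 groups (R 4.3.3, prior variance with a trend, 15 residual df) for the 19443 genes that reached 10 in 6 or more libraries. P-values were Benjamini-Hochberg adjusted over all of them at 0.05. Fold changes on that scale understate low genes. On simulated data for AAV-SIRT3 against AAV-GFP, with 19443 genes and 200 planted changes, 174 were recovered with 7 false calls. Gpnmb, the gene lists and the tests were chosen with earlier results of these data known. Named are list members, the 3 RefSeq neighbours on each side, and, by Pearson r with Gpnmb among genes with a mean of at least 50, the 10 highest and 5 lowest with group means subtracted and the 10 highest without. Ly6c2, B2m and the genes ranked next to Gpnmb were picked after their values were seen. Alternatives were TMM or quantile scaling, other pseudocounts and filters, only the 2 groups compared, a replicate block, leaving out each library, and edgeR 4.0.16 or DESeq2 1.42.0 on recovered reads. Intervals cover counting error only. Reads have no molecular identifiers, and whether pairs of replicates share a cage or day is not given, so p-values measure the spread between these samples. No 2 libraries of the same group agreed within sampling noise. The result for 1 gene is not reported here.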

Additional observations from a re-analysis of the deposited data

Results flagged for a closer look

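Gpnmb itself had no library that stood apart from its group by the gap to the nearest other library. Among the 25 genes set beside it, 10 of 75 groups of 6 libraries had such a library. Chance flags about 1 in 20, or 3.75, if the groups are independent. They are not, since the same libraries recur for each gene and some genes were named for co-variation with Gpnmb. In 6 of the 10 flagged groups the library was AAV-SIRT3 replicate 6, the highest of its group in each. These 6 can be 1 deviation seen in several genes. That library held 119.3 normalised reads of Lgals3 (next library 66.7), 50.6 of Cst7 (22.8), 930.5 of Trem2 (685.2), 922.7 of Fcrls (794.5), 335.3 of Fcgr2b (237.1) and 319.6 of Irf8 (284.0). It was also the highest AAV-SIRT3 library for Gpnmb, at 171.0. AAV-GFP replicate 6 was the lowest of its group for Fcgr2b, with 199.4 against 355.6 in the next library. In intact mice replicate 1 was the highest for Cst7, at 13.7 (next 4.53), and for Osmr, at 264.4 (216.9), and replicate 3 for Serpina3n, at 2278 (1645).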

How the results depend on the processing

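The log2 difference of Gpnmb kept its direction in AAV-GFP against intact mice (1.97) in the 28 alternatives fitted, from 1.78 to 2.23, and in AAV-SIRT3 against AAV-GFP mice (-2.08), from -2.34 to -1.89. That between AAV-SIRT3 and intact mice (-0.11) ran from -0.25 to 0.00. Counts of genes past the threshold moved more. In AAV-GFP against intact mice 358 genes passed, against 164 without the filter on low values, 199 with only the 2 groups compared and 1000 by DESeq2, and 129 to 685 when 1 library was left out (the lowest for intact replicate 3, the highest for AAV-GFP replicate 1). In AAV-SIRT3 against AAV-GFP mice 22 passed, against 8 with only the 2 groups compared and 304 by DESeq2, and 5 to 862 when 1 library was left out (the lowest for AAV-SIRT3 replicate 5, the highest for AAV-GFP replicate 2). The cause was not tested. In AAV-SIRT3 against intact mice 4214 passed, from 3287 to 4634 when 1 library was left out. Of the 10 genes most like Gpnmb, 3 were among the 10 by Spearman rho, 5 with group means not subtracted, and 2 to 9 when 1 library was left out.

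Replicate numbers are shared between groups but did not pair the libraries. Of 18 same-number pairs 1 had a correlation of deviations over 0.1, and 2 of 36 combinations of a library with another group were best with its own number. With the replicate block 372, 13 and 3923 genes passed in the 3 comparisons, and the differences of Gpnmb were 1.97, -2.08 and -0.11. Among the calls given for named genes, the block lost those of Ch25h and Irf8 in AAV-GFP against intact mice, Clec7a between the AAV groups and Ctsb in AAV-SIRT3 against intact mice, and the lysosomal genes called were 5 (from 3) in the first comparison and 7 (from 11) in the last. With 71 to 166 reads of Gpnmb in intact and AAV-SIRT3 libraries, counting error limits each to about 9.31% and 9.68%.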
